A study of Drosophila melanogaster with 6 samples.

Results

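The 10 genes described here encode parts of the thick filament and of the Z-disc of striated muscle, and they were followed in ovarian mRNA of Drosophila melanogaster. They were chosen by name and function, as Mhc, Mlc1, Mlc2, Prm, Mf, bt, sls, Obsc (also called Unc-89), Zasp52 and Zasp66, and all 10 were found among the 17633 genes of the count table. The choice was made with earlier results of these data known, so counts over the 10 describe them and are not independent evidence. The ovaries came from females aged 3 to 6 days, in 2 groups of 3 libraries. One group was flamDeltaProm/flamDeltaProm, that is, homozygous for a deletion of the promoter of flamenco, the locus of piRNAs against transposons in follicle cells. The other group carried the same deletion over the balancer chromosome FM7, so no group was free of the deletion. Chromosomes 2 and 3 were labelled as wild type in both. Sample titles call the controls WT, but their genotype entries give FM7, which is used here. The study as a whole deals with Traffic jam and somatic piRNAs, and the comparison asks how ovaries with 2 copies of the deletion differ from those with 1. Copies of the deletion and the FM7 chromosome change together between the groups, so their effects cannot be told apart. Whether replicates came from separate animals is not stated in the labels, and p-values then reflect only the spread between these libraries, which may be technical.

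Each Drosophila ovary is wrapped in a network of muscle, the peritoneal sheath, and each ovariole within it has a muscular epithelial sheath of its own. Their contractions move egg chambers toward the oviduct. The cells hold sarcomeres, in which thick filaments of myosin slide along thin filaments of actin. The Z-disc anchors the thin filaments at the ends of each sarcomere, the M-line holds the middle of the thick filaments, and giant elastic proteins tie the filaments to the Z-disc. Germ cells and follicle cells make up most of an ovary, and they use nonmuscle myosins encoded by other genes.

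Library totals ran from 19564819 to 23181058 counts. Germ cell markers marked the tissue as ovary, with a summed level of 2740 to 2998 CPM in homozygotes and 2693 to 3109 CPM in FM7 controls, where CPM are counts scaled to library size with TMM factors. Markers of flight muscle were near the floor in every library. The flightin gene fln had 0 to 2 counts per library, the flight muscle actin gene Act88F 0 or 1, TpnC41C 1 to 3 and TpnC4 8 to 17, while 3 counts correspond to 0.126 to 0.160 CPM. The members had 83 to 2492 counts per library. All levels are shares of a whole-ovary library, so more cells of a type and more RNA per cell cannot be told apart.

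The genes lie apart from each other, on 4 chromosome arms and chromosome 4, at positions given here in the BDGP6.54 assembly (the authors' own build is not known). Mhc (FBgn0264695) is at 2L from 16766566 to 16788766 on the plus strand. Mlc1 (FBgn0002772, 27657078 to 27660177), Mlc2 (FBgn0002773, 30171438 to 30174551) and Mf (FBgn0038294, 15170625 to 15181510) are on the minus strand of 3R. On 3L lie Prm (FBgn0003149, 8732858 to 8745310, minus), sls (FBgn0086906, 2039681 to 2115611, minus) and Zasp66 (FBgn0035917, 8624371 to 8638813, plus). Obsc (FBgn0053519, 23995543 to 24014254) and Zasp52 (FBgn0265991, 15762565 to 15817004) are on the minus strand of 2R, and bt (FBgn0005666, 724400 to 776474) is on the plus strand of chromosome 4. No member shares exon sequence with another gene on its own strand. An antisense RNA, asRNA:CR42860, covers 1.85% of the exon bases of sls and had 24 counts over all 6 libraries, too few to bear on the 171 to 610 counts of sls per library. tun and Cdc6 overlap introns of Zasp52 and Zasp66 on the other strand and share no exon base with them.

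Per kilobase of annotated exon, the light chain genes were the most abundant members in control ovaries and the giant protein genes the least. Mlc2 was at 14.6 ± 2.003 CPM per kb (SD, n = 3) and Mlc1 at 7.76 ± 2.07 in FM7 ovaries. Next came Zasp52 at 5.59 ± 0.116, Mhc at 5.09 ± 0.865, Zasp66 at 4.07 ± 0.776, Mf at 3.94 ± 0.876 and Prm at 3.36 ± 0.304 CPM per kb. In this middle stretch, from Zasp52 to Prm, the libraries of each gene overlapped those of its neighbour in the order. The giant protein genes stood below, without overlap, with bt at 0.614 ± 0.0712, Obsc at 0.346 ± 0.0827 and sls at 0.163 ± 0.0302 CPM per kb. The lengths sum all annotated exons of a gene, 58996 bases for sls with 13 transcripts and 28019 for bt, and a single transcript uses part of them, so the values of genes with many isoforms are understated. In homozygous ovaries Mlc2 was at 31.5 ± 8.58 and sls at 0.340 ± 0.104 CPM per kb, again first and last.

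**Figure D1:**
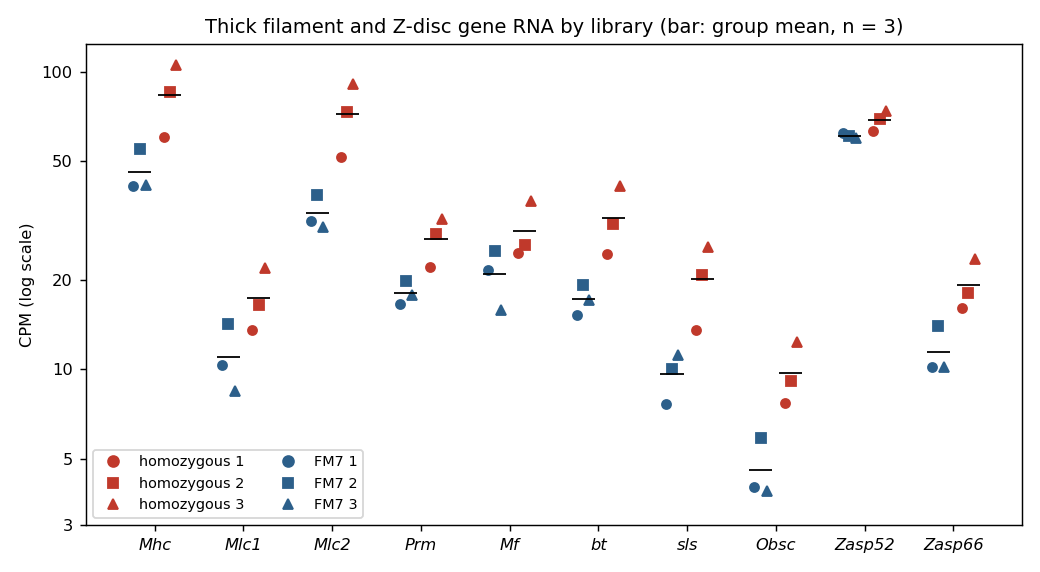
CPM of each of the 10 genes on a log axis, with 1 point per library (red homozygous, blue FM7, marker shape the replicate number) and a bar at each group mean, n = 3. Homozygous replicate 3 is the highest of all 6 libraries for every gene, and the groups overlap for Mlc1 and Mf.

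In homozygous ovaries 6 of the 10 genes rose and none fell, by edgeR's quasi-likelihood test with Benjamini-Hochberg adjustment over all genes and transposon families tested. These were the myosin regulatory light chain gene Mlc2, the paramyosin gene Prm, the giant protein genes bt, sls and Obsc, and the Z-disc gene Zasp66. Over all 9150 genes tested, 11.7% were called higher and 7.75% lower. The median log2 fold change of the 10 genes was 0.81, against -0.01 over all genes tested. At an unadjusted p under 0.05, 9 of the 10 were higher and 0 lower. The share of all genes at that threshold was not computed, so this count has nothing to be read against. DESeq2 called 8 of the 10 higher and 0 lower (10.4% of all genes higher), and limma-voom 5 higher and 0 lower (10.8%). The count of genes called higher by edgeR changed with the libraries kept, in fits that also held fewer libraries. It was 0 when FM7 replicate 1 was dropped, where 5.81% of all genes were called higher, 1 when homozygous replicate 2 (7.69%) or FM7 replicate 3 (10.3%) was dropped, and 2 after dropping homozygous replicate 3 (5.64%). Dropping homozygous replicate 1 gave 8 (10.6%) and dropping FM7 replicate 2 gave 5 (9.76%). With all libraries it was 3 without a filter on low counts (7.43%), 8 with library sizes alone (16.8%) and 6 with RLE scaling (11.7%), upper quartile scaling (12.7%) or the replicate numbers as a block (7.37%). All of the 10 fitted log2 fold changes were above 0 in each of these fits.

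The hexameric muscle myosin is built from the heavy chain of Mhc, which carries the motor, the essential light chain of Mlc1 and the regulatory light chain of Mlc2. Mlc2 was at 51.8, 73.3 and 91.0 CPM in homozygotes 1 to 3 and at 31.5, 38.7 and 30.1 CPM in FM7 controls 1 to 3. The groups did not overlap, and the lowest homozygote stood 1.34-fold above the highest control. It rose 2.16-fold, or by 1.11 on the log2 scale (SE 0.23, adjusted p = 0.0263, edgeR) with a 95% interval of 1.46-fold to 3.20-fold, the largest of the 10 fitted folds. Mhc itself was at 60.5, 85.6 and 105 CPM in homozygotes and 41.5, 55.2 and 41.8 CPM in controls. The groups did not overlap either, but replicate 1 of the homozygotes was only 1.10-fold above FM7 replicate 2, and the difference did not pass (log2 fold change 0.86, SE 0.23, adjusted p = 0.0569, edgeR). Mhc had an adjusted p of 0.00698 (edgeR) without homozygous replicate 1 and of 7.24e-05 by DESeq2. That was the only 1 of the 6 fits without 1 library that called it, and the highest adjusted p among them was 0.176 (edgeR). Of the 7 other alternatives, 2 called Mhc, DESeq2 among them. For Mlc1 the values were 13.6, 16.5 and 21.9 CPM in homozygotes against 10.3, 14.2 and 8.44 CPM in controls. Here FM7 replicate 2 lay above homozygous replicate 1, and the log2 fold change of 0.66 (SE 0.23) had an adjusted p of 0.0879 by edgeR.

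Paramyosin, the product of Prm, forms the core of invertebrate thick filaments, and the same gene makes the shorter miniparamyosin. Prm was at 22.0, 28.5 and 32.0 CPM in homozygotes and at 16.5, 19.8 and 17.7 CPM in controls. Every homozygote was above every control, and the spread within groups was the smallest after that of Zasp52, at 18.4% of the mean in homozygotes and 9.05% in controls. The log2 fold change was 0.61 (SE 0.14, adjusted p = 0.0190, edgeR), or 1.53-fold (95% interval 1.23 to 1.90). Myofilin, encoded by Mf, is another protein of insect thick filaments. Its RNA was at 24.7, 26.2 and 36.9 CPM in homozygotes and 21.6, 25.1 and 15.9 CPM in controls. The groups overlapped, since FM7 replicate 2 was above homozygous replicate 1, and Mf was not past the threshold in any fit (log2 fold change 0.49, SE 0.22, adjusted p = 0.160, edgeR).

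The giant proteins projectin (bt) and Sallimus (sls) are relatives of titin, and Obscurin (Obsc) sits at the M-line. All 3 genes rose. bt was at 24.5, 30.8 and 41.3 CPM in homozygotes and at 15.2, 19.2 and 17.2 CPM in controls. The lowest homozygote was 1.27-fold above the highest control, and the log2 fold change was 0.91 (SE 0.20, adjusted p = 0.0227, edgeR). sls was at 13.6, 20.8 and 25.8 CPM against 7.66, 10.01 and 11.2 CPM, without overlap. Its log2 fold change was 1.06 (SE 0.25, adjusted p = 0.0303, edgeR), and among the 10 it had the widest range within the homozygotes, with replicate 3 1.89-fold above replicate 1. Obsc was the least abundant member by CPM, at 7.70, 9.16 and 12.4 CPM in homozygotes and 4.03, 5.86 and 3.89 CPM in controls. Again no control reached the lowest homozygote. The log2 fold change of Obsc was 1.09 (SE 0.23) with the smallest adjusted p of the 10, at 0.0153 by edgeR, and its fold was 2.12 (95% interval 1.47 to 3.08). With a mean of 94.3 counts per control library and 231 per homozygous library, counting alone gives a spread of 10.3% and 6.57% of the mean, against 23.9% and 24.6% measured.

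Zasp52 and Zasp66 encode PDZ-domain proteins of the Z-disc. Zasp66 passed the test and Zasp52 did not, and the difference between them was not tested. Zasp66 was at 16.1, 18.0 and 23.6 CPM in homozygotes and 10.2, 14.0 and 10.2 CPM in controls, with no overlap. The rise was 0.75 on the log2 scale (SE 0.18, adjusted p = 0.0223, edgeR), or 1.68-fold (95% interval 1.27 to 2.23). Zasp52 is also known from cells outside muscle. Its RNA was at 63.1, 69.5 and 73.7 CPM in homozygotes and at 62.3, 61.0 and 59.7 CPM in controls. The groups did not overlap, but they lay close, with homozygous replicate 1 at 1.01-fold of FM7 replicate 1. The log2 fold change was 0.17 (SE 0.07, adjusted p = 0.0959, edgeR), and its 95% interval as a fold, 1.02 to 1.25, lies below the fitted folds of sls (2.09), Obsc (2.12) and Mlc2 (2.16). With library sizes alone, Zasp52 had a log2 fold change of 0.26 and an adjusted p of 0.0267 (edgeR). This was the only 1 of the 7 alternatives with all libraries that called it, with an adjusted p of 0.181 by DESeq2. Of the 6 fits without 1 library, 1 called it, and their adjusted p reached 0.317 (edgeR).

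The calls of the 6 genes that rose differed in how many of the fits without 1 library kept them. Obsc failed the test when homozygous replicate 3 or FM7 replicate 1 was left out (adjusted p at most 0.0693, edgeR in all of these fits). bt failed it without homozygous replicate 2, FM7 replicate 1 or FM7 replicate 3 (at most 0.0980). Prm and Zasp66 each failed when any of homozygous replicates 2 and 3 and FM7 replicates 1 and 3 was dropped (at most 0.0753 and 0.0853). Mlc2 failed without homozygous replicate 2 and without each FM7 replicate in turn (at most 0.111), and sls in each such fit but the one that dropped homozygous replicate 1 (at most 0.0946). The fitted log2 fold changes in these fits ran from 0.88 to 1.29 for Obsc, 0.905 to 1.297 for Mlc2, 0.84 to 1.28 for sls, 0.69 to 1.07 for bt, 0.58 to 0.91 for Zasp66 and 0.49 to 0.75 for Prm.

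The members varied together between libraries of the same group. Homozygous replicate 3 was the highest of all 6 libraries for 10 of 10 genes and homozygous replicate 1 the lowest homozygote for 10 of 10. Among controls, FM7 replicate 2 was the highest for 8 genes, FM7 replicate 1 for Zasp52 and FM7 replicate 3 for sls. Summed over the 10 genes, the level was 298, 379 and 464 CPM in homozygotes 1 to 3 and 221, 263 and 216 CPM in controls 1 to 3. The spread between libraries was above counting error for all 10 genes in homozygotes and for 9 in controls, Zasp52 being the exception. Every homozygote was above every control for 8 of the 10 genes, where 21.6% of all genes tested show this. These libraries share depth and RNA preparation across genes, so the 10 genes are not independent of each other. After each group's mean was removed, the log2 CPM of a member correlated with the mean of the other 9 over the 6 libraries at a Pearson r from 0.72 for sls and 0.79 for Mf to 0.98 for Mlc2 and 0.99 for Mhc. Genes outside the 10 came as close to the mean of all 10, such as Vha26 at 0.991. The share of all genes with such an r is not given here, so these values are not shown to be particular to the members.

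Ratios within a library do not depend on scaling, and they were used to ask whether the members moved by the same amount. Mhc served as the reference, and 9 ratios were compared. The regulatory light chain gene Mlc2 had 0.857, 0.856 and 0.864 counts per Mhc count in homozygotes and 0.760, 0.701 and 0.722 in controls. The ratio was 1.18-fold higher in homozygotes, without overlap, and varied little within either group. Obsc also had a ratio without overlap, at 0.127, 0.107 and 0.118 in homozygotes against 0.0973, 0.106 and 0.0932 in controls, 1.18-fold higher. Its groups all but touched, however, with homozygous replicate 2 at 0.1070 and FM7 replicate 2 at 0.1062. Zasp52 went the other way, from 1.502, 1.11 and 1.43 counts per Mhc count in controls to 1.04, 0.812 and 0.700 in homozygotes. Its mean log2 ratio fell by 0.67, or to 0.630 of the control ratio. For the other 6 genes the ratios overlapped between groups, with differences in log2 ratio from -0.35 for Mf to 0.19 for sls and a value of 0.04 for bt. The exact two-sided permutation p was 0.1 for Mlc2, Obsc and Zasp52, the smallest that 3 against 3 libraries can give, and 0.3 for each of them after adjustment over the 9 ratios. No ratio could therefore pass a threshold of 0.05.

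**Figure D2:**
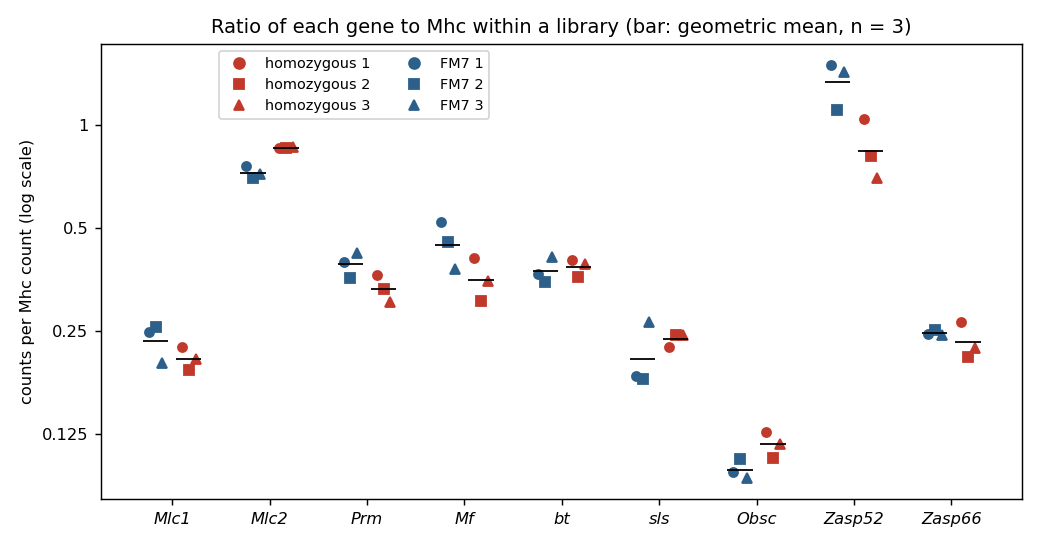
Counts of each of 9 genes per count of Mhc in the same library, on a log axis, with 1 point per library (red homozygous, blue FM7) and a bar at each group's geometric mean, n = 3. Zasp52 is lower in every homozygote (0.700 to 1.04) than in any control (1.11 to 1.502), whereas Mlc2 and Obsc are slightly higher without overlap. For Obsc the groups all but touch.

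The nonmuscle partners of the myosin genes, which serve germ cells and follicle cells, had smaller fold changes. zip, the nonmuscle heavy chain gene, was at 384 ± 35.4 CPM in homozygotes and 334 ± 3.85 CPM in controls (SD, n = 3), and its log2 difference of 0.20 (SE 0.07) had an adjusted p of 0.0835 by edgeR. sqh, its regulatory light chain gene, was called higher by a log2 fold change of 0.19 (adjusted p = 0.0458, edgeR), a call that no fit leaving out a library kept (highest adjusted p 0.154). Mlc-c, the essential light chain gene, had a log2 fold change of 0.08 (adjusted p = 0.369, edgeR). Within a library, Mhc had 17.6, 21.0 and 26.4 counts per 100 counts of zip in homozygotes and 12.5, 16.6 and 12.3 in controls. Mlc2 had 25.7, 33.3 and 45.2 counts per 100 counts of sqh against 16.9, 22.2 and 16.5. For Mlc1 and Mlc-c the values were 6.75, 7.32 and 10.1 against 4.92, 6.91 and 4.37. The groups thus did not overlap for the heavy and regulatory light chains and overlapped for the essential light chain, where FM7 replicate 2 passed homozygous replicate 1. Over the whole list of 11 nonmuscle myosin and actin genes, 2 were higher (sqh and Act42A) and 0 lower, and the median log2 fold change was 0.08. Act42A lost its call when replicate 2 or 3 of either group was dropped.

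Other muscle genes, in lists chosen by function with earlier results of these data known, gave values on both sides of those of the members. Of 8 other thick filament, M-line and Z-disc genes, 6 were tested and 2 rose. Mlp84B, a LIM protein gene of the Z-disc, had a log2 fold change of 1.06 (adjusted p = 0.0197, edgeR), and tn, a TRIM protein gene of muscle, 1.02 (adjusted p = 0.0399, edgeR). Both are below 10 CPM and were chosen after their values were seen, and neither gene was called when homozygous replicate 2 or 3 or FM7 replicate 1 was left out, tn also not without homozygous replicate 1 or FM7 replicate 3. Actn, the alpha-actinin gene, which cross-links actin at the Z-disc and also in cells outside muscle, was at 182 ± 4.33 CPM in homozygotes and 199 ± 1.60 CPM in controls (SD, n = 3), with a log2 difference of -0.13 (adjusted p = 0.0819, edgeR). Of the same list, Mlp60A (0.43, adjusted p = 0.164) and unc-45 (-0.02, adjusted p = 0.756) were also above 10 CPM and not called by edgeR. Of 20 thin filament genes, 16 were tested, 8 rose and 0 fell, and their median log2 fold change was 0.65. The muscle actin gene Act57B (0.64), the troponin T gene up (0.81), the troponin C gene TpnC73F (1.10) and Mp20 (0.95) were among those that rose. The tropomyosin gene Tm2 (0.74, adjusted p = 0.0685) and the troponin I gene wupA (0.72, adjusted p = 0.0585) had similar values without passing edgeR's test. Other well-expressed genes of this list changed less. Chd64 (0.33) and Fhos (0.22) were called higher, while tmod (0.19, adjusted p = 0.146), Lasp (0.19, adjusted p = 0.165) and Tm1 (-0.01, adjusted p = 0.946) were not called by edgeR. The thin filament count fell to 1 without FM7 replicate 1, 2 without homozygous replicate 2 or FM7 replicate 3, and 3 without homozygous replicate 3, and Act57B, up, TpnC73F and Mp20 were among those not called without FM7 replicate 1.

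Among genes of muscle calcium handling and membranes, 2 of 10 rose and 1 fell. RyR, the ryanodine receptor gene, had a log2 fold change of 1.41 (adjusted p = 0.0209, edgeR) and jp, the junctophilin gene, 1.48 (adjusted p = 0.0159, edgeR). Both are low, with control means of 1.97 ± 0.395 and 2.43 ± 0.753 CPM (SD, n = 3), and both were chosen after their values were seen. Neither was called when homozygous replicate 3 was left out, and RyR also not after dropping homozygous replicate 2, FM7 replicate 1 or FM7 replicate 3. Calx, a sodium-calcium exchanger gene, fell (-0.35, adjusted p = 0.0071, edgeR). SERCA, the calcium pump gene of the endoplasmic reticulum, had a log2 fold change of -0.15 (adjusted p = 0.111, edgeR) at 526 ± 20.1 CPM in homozygotes and 584 ± 23.4 CPM in controls (SD, n = 3). Muscle regulators had 2 of 4 tested genes higher and 0 lower. Mef2, a transcription factor gene of muscle differentiation, was at 58.8 ± 2.84 CPM against 43.6 ± 2.74 CPM (SD, n = 3), a rise of 0.43 on the log2 scale (SE 0.06, adjusted p = 0.0042, edgeR). The splicing regulator gene mbl rose by 0.78 on that scale (SE 0.12, adjusted p = 0.0051, edgeR), and both genes were called in all 6 fits without 1 library. Of 9 tested genes for muscle attachment, Fit1 was called higher (0.21, adjusted p = 0.0402, edgeR) and 0 were lower, with a median of 0.04. Among the fits that drop a library, the one without homozygous replicate 1 called 3 genes of this list and the others 0.

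**Figure D3:**
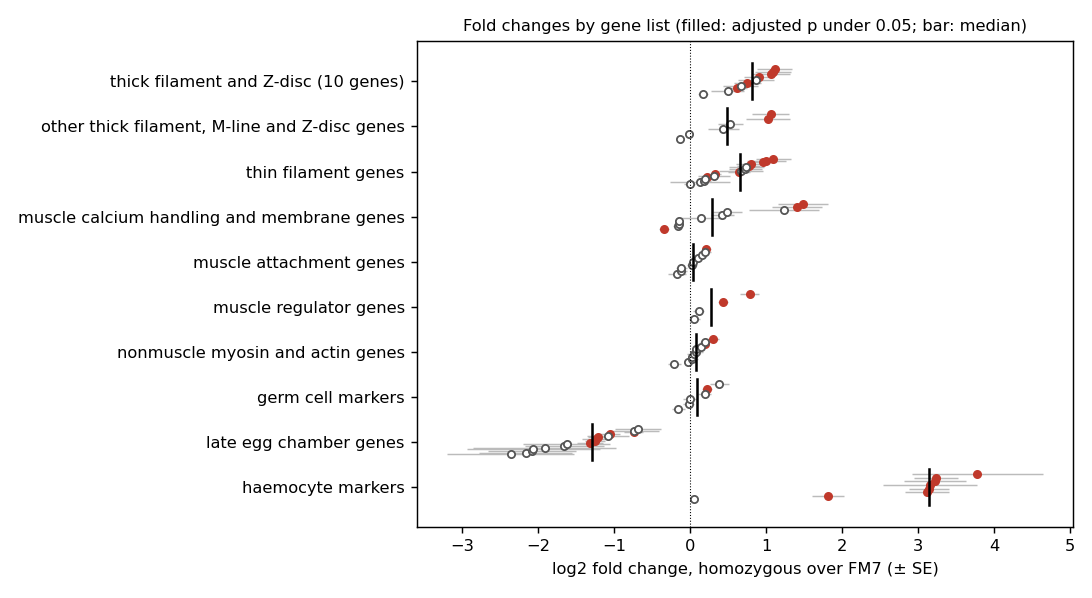
Log2 fold change of each tested gene, homozygous over FM7, by gene list, with a grey bar for the SE, filled red points for adjusted p under 0.05 and a black bar at the list's median. The 10 thick filament and Z-disc genes have a median of 0.81, thin filament genes 0.65, nonmuscle myosin and actin genes 0.08, late egg chamber genes -1.29 and haemocyte markers 3.15.

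Late egg chamber genes and markers of other cell types differed from each other in direction. Late egg chamber genes, which encode yolk, vitelline membrane and chorion proteins, had a summed level of 21557, 10142 and 13590 CPM in homozygotes 1 to 3 and 40931, 45290 and 45218 CPM in controls 1 to 3, and 6 of 16 were called lower and 0 higher. Dropping homozygous replicate 1 or 2 gave 11 lower. Their share was lowest in homozygous replicate 2 and highest, among homozygotes, in replicate 1, in which all 10 members were lowest. Of 10 haemocyte markers 8 were tested, 7 were higher and 0 lower. Their summed level was 312 to 387 CPM in homozygotes and 233 to 237 CPM in controls, of which crq, a scavenger receptor gene at 208 ± 5.45 CPM in controls (SD, n = 3), made up most. crq was the tested marker not called, with a log2 fold change of 0.05 (adjusted p = 0.503, edgeR). Ppn and Pxn were at 71.7 and 29.4 CPM in homozygotes and at 20.4 and 3.34 CPM in controls. The defining haemocyte genes Hml and NimC1 were at 0.750 ± 0.300 and 0.273 ± 0.330 CPM in controls (SD, n = 3) and at 6.997 ± 3.105 and 3.68 ± 1.58 CPM in homozygotes. He, another such gene, had 3, 0 and 0 counts in homozygotes and 0 in each control, and was not tested. Of 8 fat body markers 3 were tested, Apoltp was higher and 0 were lower. Their summed level was 23.3 to 65.1 CPM in homozygotes and 14.8 to 17.3 CPM in controls, of which apolpp, at 36.4 ± 19.7 and 13.4 ± 1.87 CPM (SD, n = 3), made up most. Among the larval serum and fat body protein genes, the groups overlapped for Lsp2, with 4, 72 and 11 counts in homozygotes against 12, 3 and 4 in controls, and for Lsp1beta, with 5, 9 and 13 against 8, 2 and 0. Fbp1 had 0, 2 and 1 counts in homozygotes against 10, 4 and 4 in controls, Fbp2 0, 0 and 1 against 7, 1 and 2, Lsp1gamma 1, 1 and 3 against 7, 3 and 2, and Lsp1alpha 0 in each against 5, 0 and 1. Of 5 tracheal markers tested, uif was higher, and 2 of the 6 fits that drop a library called a gene of that list. Its summed level was 7.31 to 8.71 CPM in homozygotes and 4.08 to 4.97 CPM in controls. Neuron markers summed to 3.30 to 6.59 CPM and 2.203 to 3.14 CPM in the respective groups, over 7 genes of which 1 was tested and not called. Of 7 follicle cell markers, Fas3 and cas were higher and tj, slbo, br and Cad99C lower. Of 6 germ cell markers, aub was higher, and 1 of the 6 fits that drop a library called a gene of that list. Hml, NimC1, He, the fat body genes other than apolpp, uif, cas and slbo are below 10 CPM and were picked once their values had been seen. The part of the late egg chamber genes or of these other cell types in the result for the 10 genes was not tested. Summed flight muscle markers were at 0.502 to 0.888 CPM in homozygotes and 0.538 to 0.844 CPM in controls, ranges that overlap.

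**Figure D4:**
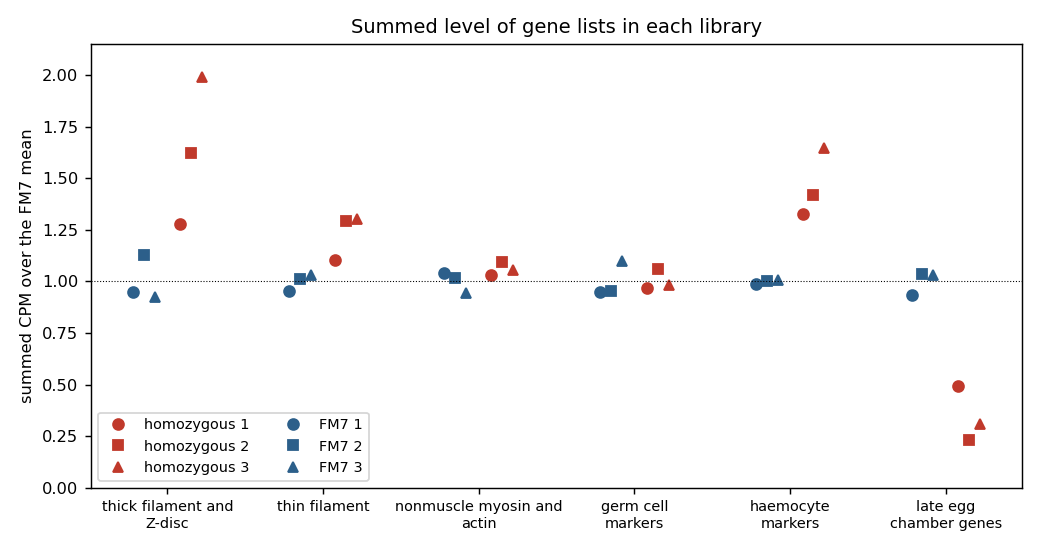
Summed CPM of 6 gene lists in each library, divided by the mean of the 3 FM7 libraries, with red points for homozygous and blue for FM7 libraries. The 10 thick filament and Z-disc genes run from 1.28 to 1.99 in homozygotes, thin filament genes from 1.10 to 1.302, haemocyte markers from 1.33 to 1.64 and late egg chamber genes from 0.231 to 0.492, while germ cell markers and nonmuscle genes lie near 1. Most of the haemocyte sum is crq, which was not called.

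The genes whose levels followed the members most closely between libraries of a group were sought among 7258 other genes with a mean of at least 5 CPM. The measure was the Pearson r, over the 6 libraries, of log2 CPM after removal of each group's mean with the mean of the 10 members, and it is a description over libraries that share depth and preparation. The innexin gene Inx3 (0.992), the ETS factor gene pnt (0.991), the proton pump gene Vha26 (0.991), CG45076 (0.989) and the LIM protein gene Lmpt (0.989) came first, followed by CG6878 (0.988), the zona pellucida protein gene pio (0.987), a gene without a symbol in the tables used here, Prp5 (0.981) and CG5390 (0.980). Inx3, CG45076, pio and CG5390 had mean CPM of 60.3, 14.9, 8.38 and 15.8 in homozygotes and 50.6, 9.48, 2.06 and 6.39 in controls. The gene without a symbol had 14.2 CPM in homozygotes and 6.97 CPM in controls. pnt and Prp5 differed less, at 21.3 and 91.5 CPM against 19.2 and 83.8 CPM. Vha26 and CG6878 were at 556 and 23.6 CPM in homozygotes and at 567 and 24.8 CPM in controls. For Lmpt the means were 28.6 ± 4.98 and 30.4 ± 2.54 CPM (SD, n = 3). Of 13 thin filament genes compared in this way, 3 were among the 50 closest genes and 4 among the 100 closest.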

How the data were processed

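Whole ovaries gave TRIzol-extracted RNA for stranded polyA libraries, per the labels' protocols. The authors deposited raw read counts for each gene and transposon family. The submitters' processing notes list featureCounts 2.0.1, STAR 2.7.8a and, without a stated role, DESeq2 1.30.1. Build, annotation and strand setting were not given in the sources used here. Gene identifiers were matched to symbols, positions and exon lengths of Ensembl release 115 (BDGP6.54).

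Counts of 9150 genes and 79 transposon families that passed filterByExpr were tested in R 4.3.3 with edgeR 4.0.16 (TMM scaling, robust quasi-likelihood test, Benjamini-Hochberg adjustment over all of them, threshold 0.05). The procedure was tested on simulated data. Each SE was derived from the fold change and its F statistic, and 95% intervals use it with the fit's degrees of freedom. A prior count of 2 was used for log2 CPM. DESeq2 1.42.0, limma 3.58.1 (voom), 2 other scalings, library sizes alone, no filter, a replicate block and leaving out each library were alternatives. The members and lists were chosen with earlier results of these data known. Genes of other lists could be named where their mean was at least 10 CPM, but not all of those are named. Genes below that level were named as stated. Of the list entries 1 germ cell marker was not used here. Same-numbered libraries did not deviate together, so numbers were not used to pair them.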

Additional observations from a re-analysis of the deposited data

How the results depend on the processing

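The direction of all 10 genes held under every alternative run, and the calls did not. Of 130 gene-by-alternative values, 97 kept their side of the threshold, 26 lost it, 7 gained it and 0 changed sign. The count of genes called higher, 6, was 3 without a filter on low counts and 0 to 8 when 1 library was left out. It was 8 with library sizes alone and with DESeq2, 6 with RLE or upper quartile scaling and 5 with limma-voom, and the count called lower was 0 throughout. The median log2 fold change of the 10 genes ran from 0.62 without homozygous replicate 3 to 0.96 without homozygous replicate 1. Over all genes, 1071 were called higher and 709 lower. With library sizes alone 320 were lower, and 82.8% of calls were higher against 60.2% with TMM (upper quartile scaling, 69.0%). Leaving out 1 library gave 522 to 976 higher and 225 to 853 lower.

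The labels number the replicates 1 to 3 in both groups without saying that a number is shared. Deviations of same-numbered libraries correlated at -0.303, -0.0711 and -0.0387, so the numbers were not taken to pair them. With a replicate block the test called 6 of the 10 genes higher, and 674 genes higher and 347 lower overall. The 9 ratios to Mhc were also computed with the replicates paired by number and without each library in turn, which gave 63 values. Their shifts could not exceed the spread between libraries used as the yardstick, so that comparison decides nothing. With 3 libraries per group, leaving out 1 moves a group mean by less than that spread. Pairing by number leaves the difference unchanged. The difference in log2 ratio for bt changed sign, from -0.01 without FM7 replicate 2 to 0.11 without FM7 replicate 3. The cause of these shifts was not tested.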
